A study of Mus musculus with 42 samples.

Results

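The response to RECTAS was compared between 2 mouse blood cancer lines and 5 mouse solid tumour lines, as the difference between the mean change of the blood lines and the mean change of the solid lines. All 42 libraries of the series entered this comparison. Of the 55401 genes listed for each library, 8775 had a mean of at least 1 TPM (the length-corrected share of a gene in all transcripts of a library, scaled to a fixed total) in every line and were tested. The 2 blood lines were EG7, labelled lymphoma and known to carry an ovalbumin transgene, and WEHI3, labelled leukemia. The 5 solid lines were B16 melanoma, CT26 and MC38 colon carcinoma, LLC lung carcinoma and Pan02 pancreatic carcinoma. Every line was kept for 6 h either in 0.1% DMSO or in 10 µM RECTAS with the same 0.1% DMSO, with 3 libraries for each of the 14 groups. That gave 6 libraries per treatment for the blood class and 15 for the solid class. CT26 and MC38 grew in RPMI-1640 and the other 5 lines in DMEM, to which 2-mercaptoethanol was added for WEHI3, so the medium differed between lines within each class. Each class is a few established lines. Whether the 3 libraries of a group were grown separately is not stated, and a p-value here reflects only how much those libraries varied, which may be technical.

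RECTAS is a small molecule that alters splicing. It is known to act through CLK kinases, which phosphorylate SR proteins, and in particular through the SR protein SRSF6. SR proteins bind exons and guide the choice of splice sites, and CLK kinases release them from nuclear speckles. The values analysed here are levels per gene and do not tell one splice form from another.

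Pan-haematopoietic genes set the blood lines apart from the solid lines. The 6 pan-haematopoietic genes (Ptprc, Coro1a, Vav1, Laptm5, Ikzf1 and Lcp1) summed to 1779 TPM in EG7 and 1576 TPM in WEHI3 with DMSO, with 6 of 6 at 1 TPM or more in both, and to between 0.507 and 3.65 TPM in the solid lines. T lymphoid genes were expressed in EG7, where 8 of 10 reached 1 TPM, and myelomonocytic genes in WEHI3, where 9 of 10 did. The surface protein Thy1 was nevertheless higher in WEHI3, at 2179 TPM, than in EG7, at 714 TPM. The myelomonocytic gene Cd68 was higher in B16, at 808 TPM with DMSO, than in WEHI3, at 24.7 TPM. Of 9 epithelial genes, 6 reached 1 TPM with DMSO in Pan02, 2 in LLC and 0 in CT26 and MC38. The epithelial genes thus did not mark every line labelled carcinoma. The depth of each library is unknown, since TPM values hold no read counts. Replicates of a group correlated at 0.988 to 0.995 across the tested genes on the log2(TPM + 1) scale. The median response over all tested genes lay between -0.05 in B16 and 0.02 in CT26 on that scale.

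Few genes separated the classes. On log2(TPM + 1), the limma test called 21 of 8775 genes (0.239%) at a Benjamini-Hochberg adjusted p under 0.05, of which 12 (0.137%) had a higher and 9 (0.103%) a lower response in the blood lines. At an unadjusted p under 0.05 there were 621 genes (7.08%). The called differences had sizes between 0.10 and 0.45 with a median of 0.27, against a median size of 0.04 over all tested genes. The same fit called 818 genes (9.32%) for the mean response of the blood lines and 1861 (21.2%) for that of the solid lines. Of the blood calls 329 (3.75% of tested genes) were higher with RECTAS and 489 (5.57%) lower, and of the solid calls 642 (7.32%) higher and 1219 (13.9%) lower. The genes called for the class difference were thus a small number beside those called for a response. The SE of the difference exceeded that of either class mean, in Hacd1 0.042 against 0.035 for blood and 0.022 for the solid lines. Unlike precision therefore enters these counts, which do not tell how many responses the classes share. The test measures the spread between libraries within a group. When the 7 lines themselves were taken as the replicates, 2 blood against 5 solid, limma called 0 genes, with 200 genes (2.28%) at an unadjusted p under 0.05. The called differences therefore hold for these 7 lines and were not shown for blood lines in general. A bulk library also does not tell fewer cells carrying a transcript from less of it per cell.

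Of the 21 called genes, 16 had both blood lines outside the range of the 5 solid lines, 9 above it and 7 below it. Over all tested genes 580 (6.61%) did so, 4.31% of tested genes above and 2.3% below. This count ranks the mean changes of the lines and takes no account of their error. In some genes the gap was within the SE of a line, as in Iqsec1 (WEHI3 0.17, MC38 0.13, SE 0.09) and Tcp1 (EG7 -0.05, MC38 -0.06, SE 0.03). In others it was wider, as in Hacd1 (WEHI3 -0.22, B16 -0.32, SE 0.05). The calls rest on the same within-line differences, so a larger share among them follows in part from the selection. In the other 5, Tmem250-ps, Pak1ip1, Apba3, H2bc21 and Ppid, at least 1 blood line lay within the range of the solid lines. H2bc21 was named as a leading gene of its list, and the other 4 fall outside the naming rule and were added once their values had been seen. The mean responses of the classes had opposite signs in 9 called genes, against 30.2% of all tested genes. Both had the same sign with the larger change in blood in 7, and with the larger change in the solid lines in 5. In 10 of the 21 the change had one sign in all 7 lines, against 14.2% of all tested genes. The expression of 6 called genes in DMSO was lower in both blood lines than in any solid line, which held for 8.63% of all tested genes, and of 0 called genes was it higher in both, against 7.02%.

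**Figure D1:**
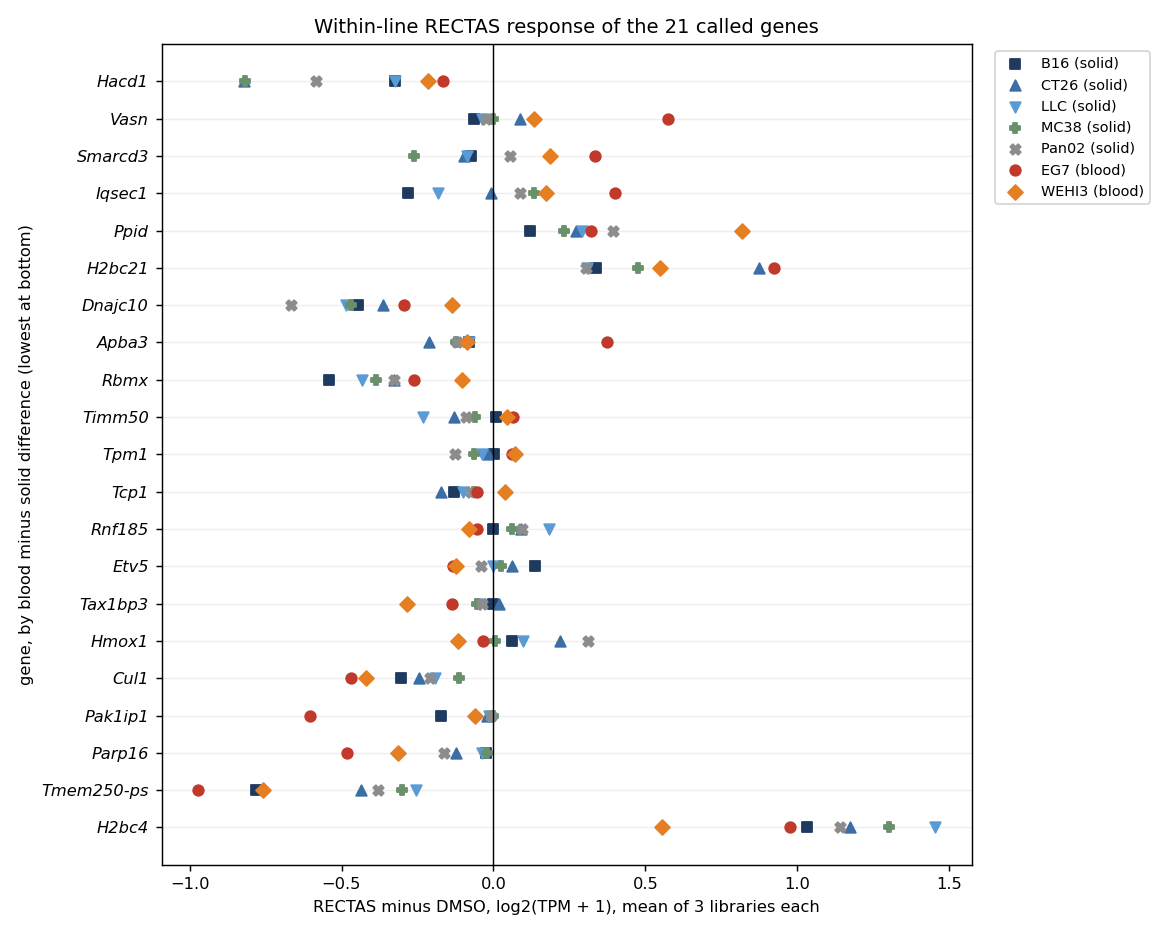
Within-line RECTAS minus DMSO difference of log2(TPM + 1), on the horizontal axis, for the 21 called genes, with 1 point per line (mean of 3 libraries minus mean of 3). Both blood lines, EG7 as circles and WEHI3 as diamonds, lie outside the 5 solid lines in 16 genes, while in Pak1ip1 and Apba3 only EG7, and in Ppid only WEHI3, stands apart.

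**Figure D2:**
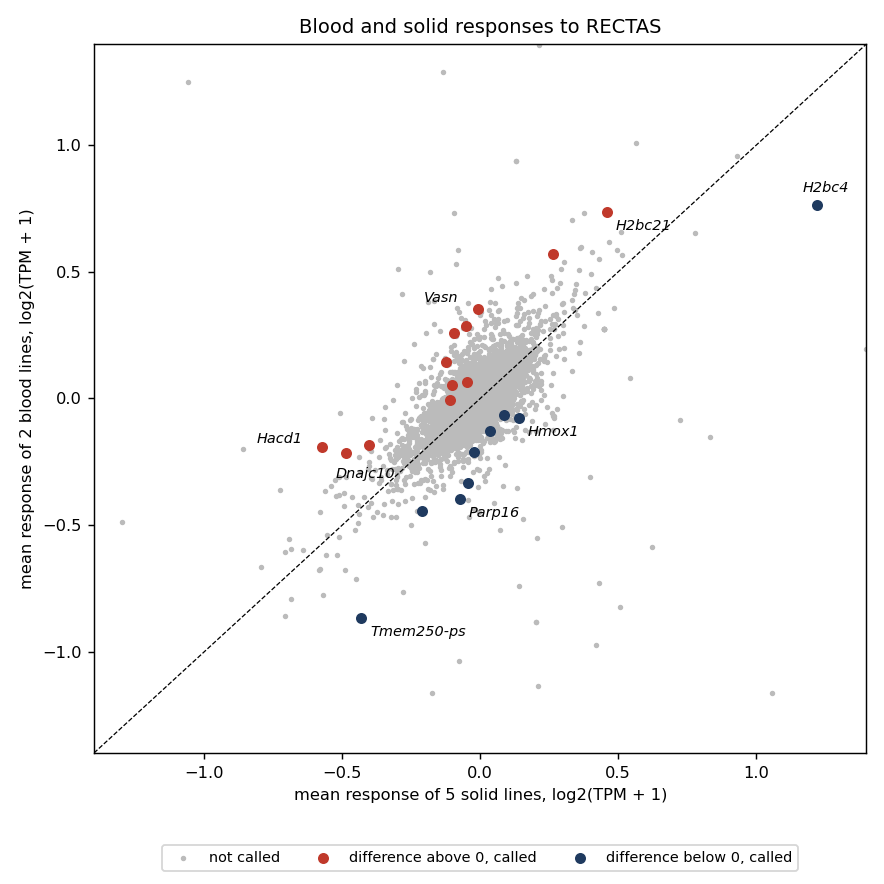
Mean response of the 5 solid lines (horizontal axis) against that of the 2 blood lines (vertical axis), both as RECTAS minus DMSO on log2(TPM + 1), for the tested genes; 8 genes that were not called lie outside the axes. Red and dark blue points are the 12 and 9 called genes above and below the dashed line of equal response, and grey points farther from the line are genes whose replicates varied more.

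Of the 21, 3 genes fell with RECTAS in both classes, with a fall that passed in each, but fell less in the blood lines: Hacd1, Dnajc10 and Rbmx. Tcp1 also had both class means below 0, but its blood mean did not pass. Hacd1 (ENSMUSG00000063275, GRCm38 chromosome 2, 13850282 to 14056135, minus strand) encodes a 3-hydroxyacyl-CoA dehydratase of very-long-chain fatty acid elongation in the endoplasmic reticulum. In EG7 it had 26.1, 24.4 and 25.4 TPM with DMSO and 23.7, 21.8 and 21.9 TPM with RECTAS. In WEHI3 it had 46.6, 49.6 and 47.4 TPM with DMSO and 40.8, 41.5 and 40.9 TPM with RECTAS. The RECTAS libraries were thus below the DMSO libraries in both blood lines, by a small step. In CT26, Hacd1 went from 127, 133 and 130 TPM to 68.7, 74.6 and 76.7 TPM. In MC38 it went from 19.02, 20.3 and 21.2 TPM to 11.7, 11.6 and 9.84 TPM, and in Pan02 from 62.1, 62.4 and 67.3 TPM to 41.7, 41.9 and 43.4 TPM. These 3 solid lines showed the largest changes, -0.82 in CT26 and MC38 and -0.58 in Pan02 on the log2 scale. B16 (62.1, 61.9 and 64.9 TPM, then 48.4, 51.3 and 50.8 TPM) and LLC (34.4, 34.9 and 31.9 TPM, then 26, 27.3 and 26.8 TPM) changed by -0.32 each, closer to the blood lines than to CT26. The mean response was -0.19 ± 0.04 (SE) in blood and -0.57 ± 0.02 in the solid lines, a difference of 0.38 ± 0.04 (SE; 95% interval 0.30 to 0.47; limma adjusted p = 5.81e-07). The 5 solid lines also differed from each other (limma F-test, adjusted p = 7.53e-06), as they did in 6 of the 21 called genes and in 4.06% of all tested genes. Hacd1 and Tmem250-ps were the called genes that were also called when any 1 of the 7 lines was left out, and the difference of Hacd1 then ranged from 0.32 to 0.45. Every other called gene lost its call without at least 1 line.

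Dnajc10 (ENSMUSG00000027006, chromosome 2, 80315466 to 80354043, plus strand) encodes ERdj5, a disulfide reductase and BiP co-chaperone of the endoplasmic reticulum. Its TPM in EG7 was 23.2, 22.3 and 22.1 with DMSO and 17.2, 17.5 and 19.9 with RECTAS. In WEHI3 it was 49.0, 50.8 and 51.9 with DMSO and 46.7, 45.8 and 45.4 with RECTAS. The change was small in WEHI3 and larger in EG7, -0.13 against -0.30. Among the solid lines the mean went from 91.4 ± 2.45 to 57.2 ± 1.37 TPM (SD, n = 3) in Pan02, from 62.7 ± 3.71 to 44.4 ± 1.29 in LLC and from 43.5 ± 1.0 to 31.2 ± 1.25 in MC38. It went from 76.3 ± 1.38 to 55.8 ± 4.25 TPM in B16 and from 111 ± 3.26 to 85.9 ± 2.82 in CT26. RECTAS libraries lay below DMSO libraries in all 7 lines without overlap. The class means were -0.22 ± 0.03 and -0.49 ± 0.02, with a difference of 0.27 ± 0.04 (limma adjusted p = 0.000232). Without WEHI3 the difference was 0.19 and no longer passed (adjusted p = 0.182).

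Rbmx (ENSMUSG00000031134, chromosome X, 57383530 to 57393036, minus strand) encodes hnRNP G, an RNA-binding protein that takes part in exon choice. It had 122, 127 and 124 TPM in EG7 with DMSO and 102.1, 102.5 and 106.6 with RECTAS, and 16.2, 15.1 and 16.4 TPM in WEHI3 with DMSO and 15.0, 15.1 and 14.03 with RECTAS. The blood lines thus stood at the 2 ends of its range of expression and changed by -0.26 and -0.10, while the solid lines changed by -0.33 to -0.54. The class means were -0.18 ± 0.04 and -0.40 ± 0.02, a difference of 0.22 ± 0.05 (limma adjusted p = 0.026). The call was lost when any of 6 single EG7 or WEHI3 libraries was left out, at an adjusted p of up to 0.0843. Without WEHI3 the difference was 0.14 (adjusted p = 0.563).

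The promoters of Dnajc10 and Rbmx are shown because both genes were lower with RECTAS in all 7 lines and least so in blood, and because RefSeq and the gene models used here give them the same start. Each line below holds the 250 bases before that start (RefSeq, GRCm38.p6), read 5′ to 3′ on the gene's strand, at chr2:80315216-80315465 on the plus strand and chrX:57393037-57393286 on the minus strand. Capitals mark a CCAAT box (CCAAT, searched on both strands as CCAAT and ATTGG), and the GC box (GGGCGG, also as CCGCCC) was searched in the same way.
Dnajc10: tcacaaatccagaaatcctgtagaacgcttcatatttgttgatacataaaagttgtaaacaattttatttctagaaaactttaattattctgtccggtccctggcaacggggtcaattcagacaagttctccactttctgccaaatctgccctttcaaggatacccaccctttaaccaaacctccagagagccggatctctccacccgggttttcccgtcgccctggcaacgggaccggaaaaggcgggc
Rbmx: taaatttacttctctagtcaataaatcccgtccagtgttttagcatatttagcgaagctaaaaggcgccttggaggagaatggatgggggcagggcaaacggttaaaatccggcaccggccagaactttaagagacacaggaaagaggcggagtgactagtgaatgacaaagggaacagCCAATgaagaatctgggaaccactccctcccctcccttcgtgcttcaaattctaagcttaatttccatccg
Rbmx held 1 CCAAT box and Dnajc10 held 0, and neither held a GC box. Of 32851 mouse promoter windows of 250 bases, 33.8% held a CCAAT box and 32.7% a GC box. The base composition was 46.4% G or C in Dnajc10 and 46.8% in Rbmx, against a median of 52.4%. These matches describe the letters of the windows and bear on no factor.

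**Figure D3:**
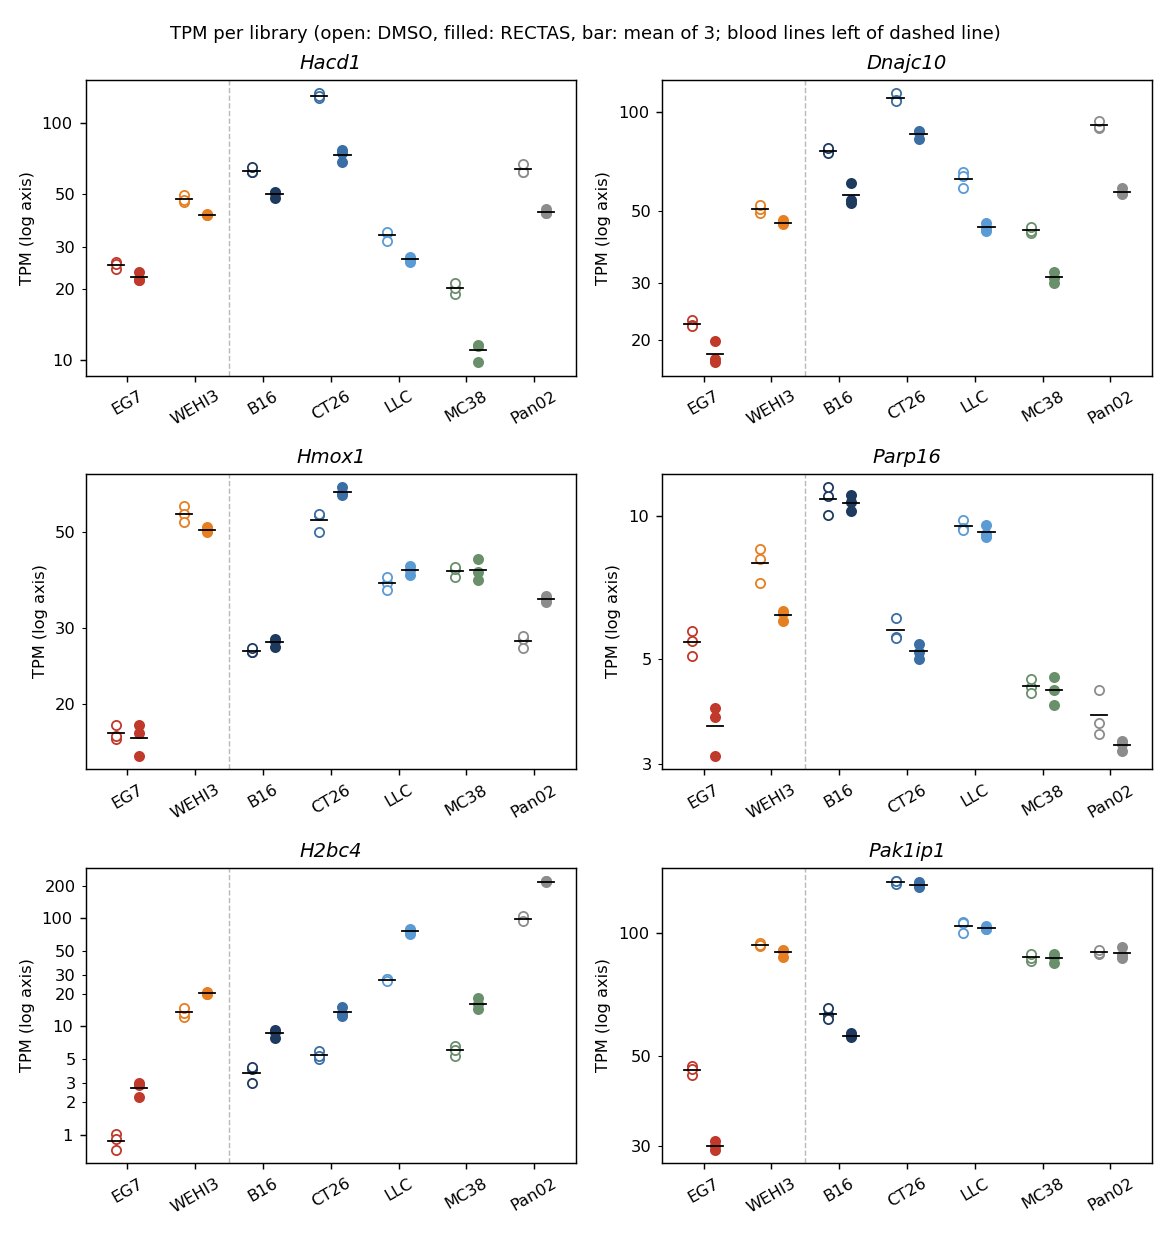
TPM of 6 called genes in each of the 42 libraries, on log axes, with lines on the horizontal axis and the blood lines left of the dashed line (open circles DMSO, filled circles RECTAS, bars the mean of 3). Hacd1 and Dnajc10 change least in the blood lines, Parp16 is lower with RECTAS in EG7 and WEHI3 and overlaps in B16, LLC and MC38, Hmox1 is higher with RECTAS in CT26 and Pan02 and not in the blood lines, H2bc4 is higher in every line, and Pak1ip1 changes by -0.60 on the log2(TPM + 1) scale in EG7.

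The opposite pattern, a deeper fall in the blood lines, was seen in Parp16, Cul1 and Tax1bp3. Parp16 (ENSMUSG00000032392, chromosome 9, 65195353 to 65239224, plus strand) encodes an ADP-ribosyltransferase anchored in the endoplasmic reticulum membrane. It went from 5.74, 5.08 and 5.46 TPM to 3.12, 3.94 and 3.78 TPM in EG7, and from 8.12, 8.52 and 7.22 TPM to 6.31, 6.00 and 6.26 TPM in WEHI3. The 2 treatments did not overlap in either blood line. In B16 it had 11.04, 10.1 and 11.5 TPM with DMSO and 11.1, 10.7 and 10.2 with RECTAS, and in MC38 4.37, 4.23 and 4.53 with DMSO and 4.31, 4.00 and 4.58 with RECTAS. The treatments overlapped in both of those lines. In LLC the values were 9.84, 9.47 and 9.37 TPM with DMSO and 9.6, 9.19 and 9.06 with RECTAS, which overlap as well. In CT26 they were 5.57, 5.55 and 6.11 TPM with DMSO and 5.37, 5.18 and 5.01 with RECTAS, and in Pan02 4.29, 3.67 and 3.48 with DMSO and 3.20, 3.30 and 3.36 with RECTAS. CT26 and Pan02 showed the larger solid changes, of -0.12 and -0.16, which stayed short of the -0.48 of EG7 and the -0.31 of WEHI3. The blood mean fell by 0.40 ± 0.05 (limma adjusted p = 2.77e-07), and the solid mean of -0.07 ± 0.03 did not pass (adjusted p = 0.0802). The difference itself was -0.32 ± 0.06 (95% interval -0.44 to -0.21; adjusted p = 0.00336). Without EG7 it was -0.24 and did not pass (adjusted p = 0.261).

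Cul1 (ENSMUSG00000029686), the scaffold of SCF ubiquitin ligases, fell in both classes. EG7 went from 62.0, 60.5 and 58.5 TPM to 43.1, 42.8 and 44.1 TPM, and WEHI3 from 61.6, 61.1 and 64.3 TPM to 47.6, 46.4 and 45.3 TPM. The changes of -0.47 and -0.42 in these lines compare with -0.11 in MC38 to -0.30 in B16. The mean response was -0.44 ± 0.04 in blood and -0.21 ± 0.02 in the solid lines, a difference of -0.23 ± 0.05 (limma adjusted p = 0.0165). It did not pass without WEHI3 DMSO replicate 3, at -0.22 with an adjusted p of 0.0504. Without EG7 the Cul1 difference was -0.21 (adjusted p = 0.333). It also did not pass without WEHI3 (adjusted p = 0.0852) or without MC38 (adjusted p = 0.0918). An exon of Cul1 overlaps A930035D04Rik on the opposite strand, and the strand setting of the counting is not given in the sources used here, so its level is uncertain. Tax1bp3 (ENSMUSG00000040158), a small PDZ-domain protein, was at 2.91 TPM in EG7 and 6.43 TPM in WEHI3 with DMSO, and at 45.8 to 92.7 TPM in the solid lines. It fell in blood by 0.21 ± 0.03 (adjusted p = 4.17e-05), with a solid mean of -0.02 ± 0.02. The difference was -0.19 ± 0.04 (limma adjusted p = 0.0274). The call was lost without any of 6 single blood libraries, at an adjusted p of up to 0.117, and with a pseudocount of 5 the difference was -0.10 (adjusted p = 0.218). Without WEHI3 it was -0.11 (adjusted p = 0.459), and under median-ratio scaling it did not pass (adjusted p = 0.0743). The Tax1bp3 call was also lost without B16, CT26, LLC, MC38 or Pan02, each left out alone, and was kept without EG7, at -0.26.

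Tmem250-ps (ENSMUSG00000087679, chromosome 2, 26136814 to 26140521, minus strand), annotated as a long intergenic RNA, shared the smallest adjusted p with Pak1ip1. EG7 went from 25.8, 26.6 and 26.7 TPM to 13.5, 12.8 and 12.5 TPM, and WEHI3 from 23.1, 23.1 and 24.9 TPM to 13.4, 13.99 and 13.4 TPM. B16 changed as much as WEHI3, from 40.2, 40.2 and 39.3 TPM to 23.3, 22.6 and 22.4 TPM, so the classes overlapped. The other solid lines changed by -0.25 in LLC to -0.43 in CT26. The class means of -0.87 ± 0.03 and -0.43 ± 0.02 differed by -0.43 ± 0.04 (limma adjusted p = 7.19e-10), and the 5 solid lines differed among themselves (F-test, adjusted p = 7.53e-06). The gene overlaps 1810012K08Rik on the opposite strand, so reads of the 2 could be confused.

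The histone H2B genes H2bc4 and H2bc21 were called in opposite directions. Histone H2B is a core protein of the nucleosome, and most of its genes are replication-dependent, with transcripts that usually end without a poly(A) tail, whereas these libraries were made from polyadenylated RNA. H2bc4 (ENSMUSG00000018102, chromosome 13, 23684199 to 23692908, plus strand) rose in both classes. EG7 went from 0.72, 1.01 and 0.90 TPM to 2.97, 2.90 and 2.22 TPM, and WEHI3 from 12.3, 13.3 and 14.9 TPM to 20.8, 19.9 and 20.1 TPM. B16 went from 4.01, 4.21 and 2.97 TPM to 9.22, 8.80 and 7.84 TPM, and CT26 from 5.00, 5.89 and 5.37 TPM to 15.1, 12.4 and 13.1 TPM. The treatments did not overlap in any of these lines. LLC went from 27.3, 27.6 and 26.5 TPM to 75.9, 80.6 and 71.4 TPM, MC38 from 5.33, 6.57 and 6.12 TPM to 14.5, 18.4 and 15.98 TPM, and Pan02 from 99.3, 104 and 93.8 TPM to 216, 221 and 222 TPM. On log2(TPM + 1) the rise was 0.77 ± 0.07 in blood and 1.22 ± 0.04 in the solid lines, a difference of -0.45 ± 0.08 (limma adjusted p = 0.00336). In EG7 the gene averaged 0.877 TPM with DMSO and 2.70 TPM with RECTAS, so it reached the minimum of 1 TPM in that line only through the RECTAS libraries.

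That difference depended on the constant added to the TPM. The ratio of means, RECTAS over DMSO, was 3.08 in EG7 and 1.5 in WEHI3, and between 2.21 in Pan02 and 2.80 in LLC in the solid lines. By ratio, therefore, only WEHI3 lay below the solid lines and EG7 lay above them. With a pseudocount of 0.1 the H2bc4 difference was -0.26 and did not pass (adjusted p = 0.437), and with a pseudocount of 5 it was -0.55. Without WEHI3 it was -0.25 (adjusted p = 0.579). H2bc21 (ENSMUSG00000068854, chromosome 3, 96221119 to 96223738, plus strand) also rose in both classes, by 0.74 ± 0.04 in blood and 0.46 ± 0.03 in the solid lines. EG7 went from 1.09, 0.98 and 1.21 TPM to 2.96, 2.82 and 3.12 TPM, and WEHI3 from 2.61, 2.77 and 2.79 TPM to 4.29, 4.30 and 4.77 TPM. CT26 changed as much as EG7, by 0.87 against 0.92, and the 5 solid lines differed (F-test, adjusted p = 0.00041). The difference of 0.28 ± 0.05 (limma adjusted p = 0.00914) became 0.46 with a pseudocount of 0.1 and 0.07 with a pseudocount of 5, where it did not pass (adjusted p = 0.587). Without EG7 it was 0.09 (adjusted p = 0.999). Of the 6 histone genes tested, 1 was called higher and 1 lower in blood, beside 0.137% and 0.103% of all tested genes, and H2bc12, at -0.46 ± 0.15, did not pass (adjusted p = 0.35). H1f0, at 0.12 ± 0.04, did not pass either (adjusted p = 0.247). H2B genes are near-identical in their coding sequence, so reads can be assigned to either copy.

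**Figure D4:**
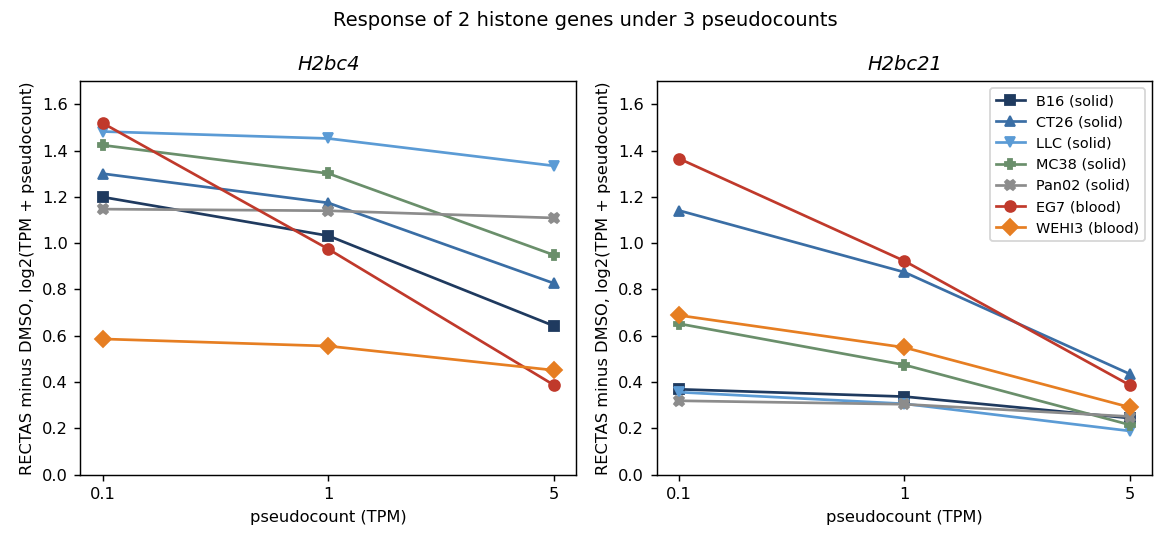
Within-line RECTAS minus DMSO difference (vertical axis) of H2bc4 and H2bc21 after adding 0.1, 1 or 5 TPM before the logarithm (horizontal axis), with 1 line per cell line. For H2bc4, EG7 moves from the top of the 7 lines at 0.1, with 1.52, to the bottom at 5, with 0.39, while WEHI3 is below all solid lines at each setting.

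In 8 genes with both blood lines outside the solid range, the class means had opposite signs. Both class means passed only in Tpm1, though its treatments overlapped in EG7, WEHI3, B16 and CT26. Each of the others had a class mean that did not pass, so a change of sign was not shown for them. Hmox1 (ENSMUSG00000005413, chromosome 8, 75093621 to 75100589, plus strand), the haem oxygenase that degrades haem and a standard target of the oxidative stress factor NRF2, had 16.6, 17.9 and 16.9 TPM in EG7 with DMSO and 17.9, 15.2 and 17.1 with RECTAS. In WEHI3 it had 57.4, 55.0 and 52.8 TPM with DMSO and 51.3, 50.5 and 50.1 with RECTAS. The treatments overlapped in EG7, and RECTAS was below DMSO in WEHI3. In Pan02 it went from 28.4, 28.8 and 27.0 TPM to 35.5, 34.6 and 35.0 TPM, in CT26 from 50.04, 54.6 and 55.0 to 61.5, 63.5 and 61.0, and in LLC from 38.1, 39.3 and 36.8 to 40.8, 39.8 and 41.7. RECTAS was above DMSO in all 3. In B16 the values were 26.4, 26.5 and 27.0 TPM with DMSO and 28.1, 28.3 and 27.1 with RECTAS, and in MC38 39.4, 41.1 and 41.5 with DMSO and 40.4, 38.8 and 43.3 with RECTAS. B16 was higher with RECTAS by a small step, and MC38 overlapped. The solid mean rose by 0.14 ± 0.02 (limma adjusted p = 3e-06), with differences between the 5 lines (F-test, adjusted p = 0.0182), and the blood mean of -0.08 ± 0.03 did not pass (adjusted p = 0.154). The difference between the classes was -0.22 ± 0.04 (95% interval -0.29 to -0.14; adjusted p = 0.00336). It did not pass without Pan02 or without WEHI3, at -0.17 in both cases.

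Rnf185, Etv5, Timm50 and Tpm1 differed by smaller amounts. Rnf185 (ENSMUSG00000020448), a ubiquitin ligase of endoplasmic-reticulum-associated degradation, was at 14.7 to 15.5 TPM in the blood libraries with DMSO and changed by -0.05 in EG7 and -0.08 in WEHI3. The solid mean rose by 0.09 ± 0.02 (adjusted p = 0.000309), and the difference was -0.15 ± 0.03 (limma adjusted p = 0.026). Etv5 (ENSMUSG00000013089), an ETS transcription factor induced by growth factor signalling, fell in blood by 0.13 ± 0.03 (adjusted p = 0.00258), with 8.92, 9.45 and 8.62 TPM going to 8.68, 7.91 and 7.79 in EG7 and 7.57, 8.29 and 7.94 going to 7.40, 7.22 and 6.97 in WEHI3. Its solid lines stood at 15.9 to 87.9 TPM with DMSO and changed by -0.04 in Pan02 to 0.14 in B16, and the difference was -0.16 ± 0.03 (adjusted p = 0.0246). Timm50 (ENSMUSG00000003438), a receptor of the mitochondrial protein import channel, fell in the solid lines by 0.10 ± 0.02 (adjusted p = 4.27e-05), with a blood mean of 0.05 ± 0.03 and a difference of 0.16 ± 0.03 (adjusted p = 0.026). Tpm1 (ENSMUSG00000032366) encodes a tropomyosin, which winds around actin filaments. It was at 46.7 TPM in EG7 and 40.2 TPM in WEHI3 with DMSO, against 519 to 1466 TPM in the solid lines. It rose by 0.07 ± 0.02 in blood (adjusted p = 0.045) and fell by 0.05 ± 0.01 in the solid lines (adjusted p = 0.00671), a difference of 0.11 ± 0.03 (adjusted p = 0.0307). Each of these 4 calls was lost without some single libraries, 5 for Rnf185 and Timm50, 6 for Etv5 and 8 for Tpm1, at adjusted p-values of up to 0.126. Apart from MC38 DMSO replicate 3 for Tpm1, all of them were EG7 or WEHI3 libraries. All 4 calls were also lost without EG7 and without WEHI3. Counting every line left out alone, the calls were lost without 4 lines for Rnf185, 5 for Etv5 and Timm50 and 6 for Tpm1. Under median-ratio scaling Timm50 (adjusted p = 0.319) and Tpm1 (adjusted p = 0.336) did not pass. Under quantile normalization these 2 and Etv5 did not pass, at adjusted p-values of 0.0599 for Timm50, 0.164 for Tpm1 and 0.0642 for Etv5.

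Vasn, Smarcd3 and Iqsec1 had higher responses in blood, and a level under 3 TPM in 1 or both blood lines with DMSO, whose part in the result was not tested. Vasn (ENSMUSG00000039646), a membrane protein known to bind transforming growth factor beta, had 2.61, 2.48 and 2.06 TPM in EG7 with DMSO and 4.40, 3.13 and 4.68 with RECTAS. In WEHI3 it had 2.69, 2.51 and 2.31 TPM with DMSO and 2.83, 3.62 and 2.19 with RECTAS. The treatments were apart in EG7 and overlapped in WEHI3. The solid lines held 21.3 to 50.8 TPM and changed by -0.07 to 0.09. The blood mean rose by 0.35 ± 0.07 (adjusted p = 0.000272), and the difference was 0.36 ± 0.08 (limma adjusted p = 0.0274). Without EG7 it was 0.14 (adjusted p = 0.956), and with a pseudocount of 5 it was 0.19 (adjusted p = 0.109). The Vasn call was also lost without B16, CT26, LLC, MC38 or Pan02, each left out alone, and was kept without WEHI3, at 0.58. It was lost as well without any of 7 single EG7 or WEHI3 libraries, at an adjusted p of up to 0.108. Smarcd3 (ENSMUSG00000028949), the BAF60C subunit of SWI/SNF chromatin remodellers, went from 2.17, 2.74 and 2.22 TPM to 3.37, 3.19 and 3.17 TPM in EG7 and from 2.79, 2.09 and 1.80 to 2.96, 2.33 and 2.65 in WEHI3, where the treatments overlapped. It rose in blood by 0.26 ± 0.06 (adjusted p = 0.00441) against -0.09 ± 0.04 in the solid lines, a difference of 0.35 ± 0.07 (adjusted p = 0.0246). Without EG7 the Smarcd3 difference was 0.28 (adjusted p = 0.463), and the call was also lost without CT26 or MC38. The same held without any of 5 single EG7 or WEHI3 libraries, at an adjusted p of up to 0.0863. Iqsec1 (ENSMUSG00000034312), an exchange factor for the small GTPase ARF6, went from 1.58, 1.54 and 1.47 TPM to 2.27, 2.79 and 2.01 TPM in EG7 and from 8.89, 8.14 and 8.01 to 10.8, 8.20 and 9.73 in WEHI3, where the treatments overlapped. Its difference was 0.34 ± 0.08 (adjusted p = 0.0467), and the call was lost without any of 28 single libraries. Without EG7 the Iqsec1 difference was 0.22 (adjusted p = 0.735). At a pseudocount of 5 neither Smarcd3 (adjusted p = 0.0639) nor Iqsec1 (adjusted p = 0.163) passed. Exons of Vasn overlap Dnaja3 on the same strand, and exons of Smarcd3 and Iqsec1 overlap Chpf2 and Gm44123 on the opposite strand, so these levels are uncertain.

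Tcp1 (ENSMUSG00000068039), a subunit of the chaperonin that folds actin and tubulin, had the smallest called difference, 0.10 ± 0.02 (limma adjusted p = 0.0499). It fell in the solid lines by 0.11 ± 0.01 (adjusted p = 2.95e-08) and changed by -0.05 in EG7 and 0.04 in WEHI3, with a blood mean of -0.01 ± 0.02 (adjusted p = 0.91). Its call was lost without any of 32 single libraries, with adjusted p-values of up to 0.141. Without WEHI3 the difference was 0.06 (adjusted p = 0.733). Of the other settings run on all libraries, it passed only with array weights and with no filter, with an adjusted p of 0.57 under median-ratio scaling and 0.495 with the trend on GC content and length removed. Tcp1 overlaps exons of Mrpl18 and Acat3 on the opposite strand.

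In 3 called genes 1 blood line set the class mean, and the difference between EG7 and WEHI3 was itself called, as it was in 23 of all tested genes (0.262%). Pak1ip1 (ENSMUSG00000038683, chromosome 13, 41001023 to 41013015, plus strand), which binds and restrains the kinase PAK1 and takes part in ribosome assembly, went from 47.3, 44.9 and 46.5 TPM to 30.01, 29.4 and 30.9 TPM in EG7. In WEHI3 it went from 93.0, 94.5 and 93.6 to 90.4, 87.6 and 91.1 TPM. The change of -0.60 in EG7 stood against -0.06 in WEHI3 and -0.17 in B16, with the other 4 solid lines between -0.02 and 0.00. EG7 and WEHI3 differed by -0.54 (limma adjusted p = 8.43e-11). The class difference of -0.29 ± 0.02 (adjusted p = 7.19e-10) was -0.02 without EG7 (adjusted p = 0.999). The gene overlaps A730081D07Rik on the opposite strand. Apba3 (ENSMUSG00000004931), an adaptor of the X11 family, went from 3.55, 3.59 and 3.74 TPM to 5.29, 5.16 and 4.56 TPM in EG7, while WEHI3, with 32.4, 35.4 and 34.9 TPM before and 33.0, 31.3 and 32.1 TPM after, lay among the solid lines. Its class difference was 0.27 ± 0.05 (adjusted p = 0.00336) with EG7 and 0.04 without it (adjusted p = 0.999). With a pseudocount of 5 it was 0.18 and did not pass (adjusted p = 0.0529). Exons of Apba3 overlap Mir3057 on the same strand and Tjp3 on the opposite strand, so its level is uncertain. Ppid (ENSMUSG00000027804), the HSP90-binding cyclophilin 40, rose in both classes. WEHI3 went from 70.4, 66.6 and 66.5 TPM to 116, 120 and 125 TPM, a change of 0.82, and EG7 from 186, 185 and 185 to 224, 234 and 236 TPM, a change of 0.32 within the solid range of 0.12 to 0.39. The class difference was 0.31 ± 0.07 (adjusted p = 0.0262), and 0.06 without WEHI3 (adjusted p = 0.959). The Ppid call was also lost without MC38 (adjusted p = 0.0872) and without any of 9 single EG7 or WEHI3 libraries, at an adjusted p of up to 0.0837.

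The direct machinery of RECTAS showed no class difference that passed. Srsf6 rose by 0.17 ± 0.02 in blood and by 0.15 ± 0.01 in the solid lines, and the difference was 0.02 (95% interval -0.02 to 0.07; limma adjusted p = 0.915). For the kinases that phosphorylate SR proteins the intervals were wider. Clk1 differed by -0.06 (-0.36 to 0.23), Clk2 by 0.02 (-0.11 to 0.15), Clk3 by 0.05 (-0.08 to 0.17) and Clk4 by -0.09 (-0.29 to 0.11). Srpk1 differed by -0.01 (-0.13 to 0.11) and Srpk2 by 0.20 (0.04 to 0.36; adjusted p = 0.537). Clk1 varied more within the solid lines, from -0.63 in B16 to 0.59 in CT26, than between the classes. Luc7l, a factor of the U1 snRNP, rose by 0.36 ± 0.03 in blood and 0.48 ± 0.02 in the solid lines, and its difference of -0.13 ± 0.03 did not pass (adjusted p = 0.147). None passed in either direction among the tested SR proteins (12), kinases of the CLK, SRPK and DYRK families (10), hnRNP proteins (25), core spliceosome genes (47) and factors of nonsense-mediated decay (17). With 0.239% of all tested genes called, lists of these sizes would hold few or no calls at that share. At an unadjusted p under 0.05 there were 1 SR protein, 1 kinase, 0 hnRNP proteins, 3 core spliceosome genes and 1 decay factor, beside 7.08% of all tested genes, so these counts set none of the lists apart. The median difference was lowest for the kinases, at -0.0013, and highest for the decay factors, at 0.04, beside 0.01 over all tested genes.

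The functional lists held 560 of the 8775 tested genes, so most tested genes, called or not, belonged to none of them. Of 38 lists, 33 had a tested gene, and 5 of 560 listed genes were called, beside 0.239% of all tested genes: Hmox1, Hacd1, Tpm1, H2bc4 and H2bc21. The other 16 called genes were in no list. T lymphoid, myelomonocytic, pan-haematopoietic, melanocyte and epithelial markers had 0 members at 1 TPM in every line and could not be tested. Among the 29 lists with at least 5 tested genes, the median difference was highest for cholesterol synthesis and uptake, at 0.08 over 23 genes. In that list 20 of 23 genes had a difference above 0, against 57.2% of all tested genes, 7 were at an unadjusted p under 0.05 (30.4%, against 7.08% of all) and 0 passed adjustment. Sc5d, a sterol desaturase of the last steps of cholesterol synthesis, differed by 0.13 ± 0.05 (limma adjusted p = 0.418). By line the list's median response was 0.06 in EG7 and -0.04 in WEHI3, and it ran from -0.18 in Pan02 and -0.11 in B16 to 0.04 in LLC. WEHI3 therefore lay within the solid lines and only EG7 above them.

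Ribosome biogenesis had the next highest median, 0.05 over 26 genes, with 24 of 26 above 0, 6 at an unadjusted p under 0.05 (23.1%) and 0 called. The nucleolar factors Wdr12 and Pes1, partners in one complex of large-subunit maturation, differed by 0.14 ± 0.04 (limma adjusted p = 0.216) and 0.10 ± 0.03 (adjusted p = 0.328). The list's median was 0.04 in EG7 and 0.02 in WEHI3, above CT26, LLC, MC38 and Pan02, at -0.06 to -0.005, but below B16, at 0.06. Among 15 NRF2 targets 7 were at an unadjusted p under 0.05 (46.7%, against 7.08% of all), the largest share of any list with at least 10 tested genes. Among lists with at least 5 tested genes, the histone list had a larger share, 4 of 6. The 7 NRF2 targets did not move together: Hmox1, Txnrd1, Fth1, Pgd and Ftl1 had lower and Gsr and Abcc1 higher responses in blood. Fth1, the ferritin heavy chain, differed by -0.11 ± 0.04 (adjusted p = 0.479), and only Hmox1 passed. The lowest medians were those of hypoxia and glycolysis and of autophagy and lysosome, both -0.02 over 22 and 23 genes with 0 called. In the actin and adhesion list Tpm1 was called higher, while Tpm4, another tropomyosin, differed by -0.12 ± 0.03 and did not pass (adjusted p = 0.0655).

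**Figure D5:**
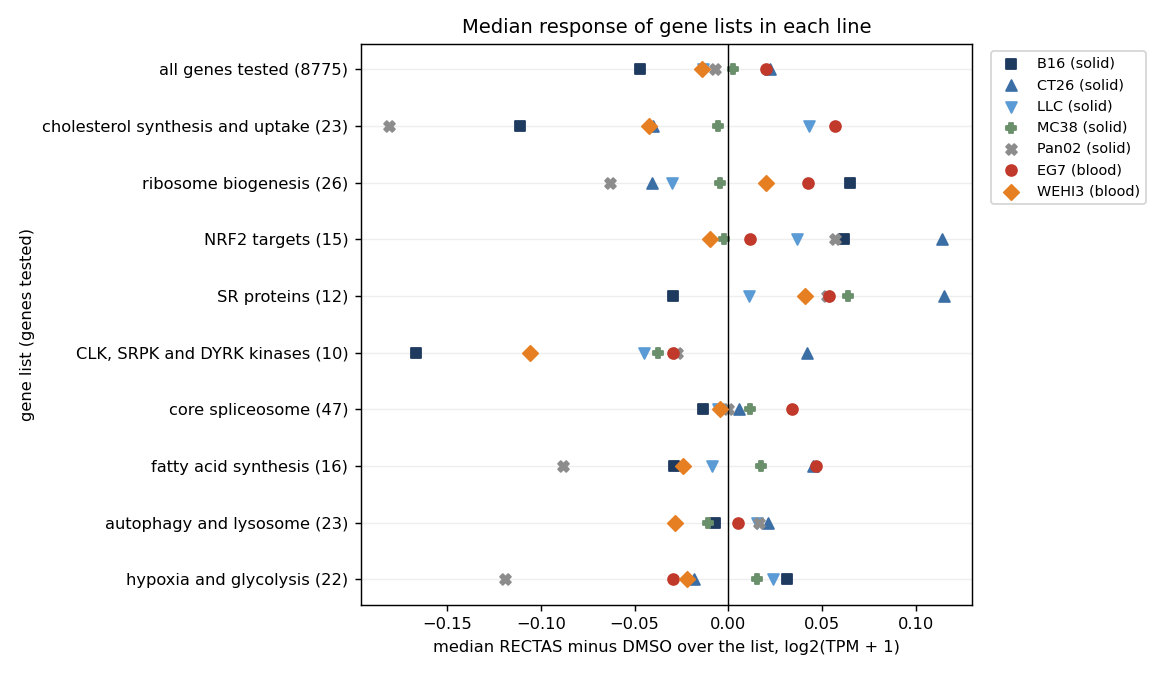
Median RECTAS minus DMSO difference of log2(TPM + 1) over the tested genes of 9 lists and over all tested genes (horizontal axis), with 1 point per line and the number of genes in brackets. In the cholesterol list EG7 lies above and WEHI3 within the solid lines, and in the ribosome biogenesis list both blood lines lie above 4 of the 5 solid lines, with B16 above both.

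Signs of RNA quality did not separate the classes. The nuclear-retained RNAs Malat1 and Neat1 differed by 0.06 ± 0.22 and -0.02 ± 0.14, and neither passed. With RECTAS the mitochondrially encoded share of all transcripts was higher in both blood lines, by 0.137 points in EG7 and 0.525 points in WEHI3, and in 4 of 5 solid lines, by up to 0.657 points in Pan02, with -0.24 points in B16. The mean difference between the classes was -0.0267 points (exact permutation test over lines, two-sided p = 0.762), and 2 lines against 5 cannot give a p below 0.0952.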

How the data were processed

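Gene expression was measured by sequencing of polyadenylated RNA in 42 libraries (TruSeq stranded mRNA kit, per the labels' protocols). The deposited values were TPM per gene, made by the authors, 1 file per library. HISAT2 2.2.0 and RSEM 1.3.0 appear in the submitters' processing notes, with GRCm38 but no roles; annotation release, strand setting and filters: not given in the sources used here. TPM sums were 999998 to 1000003 per library, depth is unknown, and 11001 to 12205 genes reached 1 TPM. Gene IDs were matched to GENCODE M21 (99.5%).

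Tests used limma 3.58.1 in R 4.3.3 on log2(TPM + 1), with 14 group means, an intensity trend and two-sided contrasts; adjusted p-values cover all 8775 genes. The fit was tested on simulated data. The scale understates changes of low genes. Named genes were called genes with both blood lines outside the solid range, up to 3 genes per list with the smallest p, and Srsf6, Clk1 to Clk4, Srpk1 and Srpk2, of which those with results are described. Tmem250-ps, Pak1ip1, Apba3, Ppid, H2bc12, Fth1, Pgd, Ftl1 and Abcc1 are described too and fall outside this rule. The comparison, lists and rule were chosen with earlier results of these data known. Alternatives covered scaling, pseudocount, filter, variance model, a replicate block, and leaving out each line or library.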

Additional observations from a re-analysis of the deposited data

Results flagged for a closer look

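The response to RECTAS differed between the blood and the solid lines, by the limma test of the difference itself, in 21 genes. Lower in blood were H2bc4 (-0.455 on log2(TPM + 1)), Tmem250-ps (-0.435), Parp16 (-0.323), Pak1ip1 (-0.287), Cul1 (-0.231), Hmox1 (-0.215), Tax1bp3 (-0.188), Etv5 (-0.164) and Rnf185 (-0.152). Higher in blood were Tcp1 (0.102), Tpm1 (0.115), Timm50 (0.155), Rbmx (0.221), Apba3 (0.266), Dnajc10 (0.271), H2bc21 (0.277), Ppid (0.306), Iqsec1 (0.337), Smarcd3 (0.352), Vasn (0.361) and Hacd1 (0.384).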

How the results depend on the processing

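The 21 calls (12 higher and 9 lower in blood, 16 with both blood lines outside the solid range) kept their signs in every alternative that tested them. The calls numbered 32 (16 lower) with the trend on GC content and length removed and 12 (6 higher, 9 outside the range) with a minimum of 5 TPM. Under that minimum Vasn, Smarcd3, Iqsec1, Tax1bp3, H2bc4, H2bc21, Apba3 and Parp16 were not tested, and Tcp1 lost its call. With no filter there were 373 (147 higher, 226 lower, 137 outside), of 33852 genes that include many absent from some lines. With array weights, whose estimation stopped before convergence, there were 79 (46 higher, 33 lower, 52 outside). Median-ratio scaling and quantile normalization gave 14 lower each. With the lines as replicates every count was 0. Without CT26 there were 7 higher, without EG7 13 calls (6 higher), without LLC 9 and without MC38 10 outside the range, and without WEHI3 22 higher and 31 outside. Of the 21 genes, 8 were called without EG7 and 9 without WEHI3. Leaving out 1 library gave 11 calls (without EG7 DMSO replicate 3) to 26, with 4 to 14 higher, 6 to 13 lower and 7 to 18 outside; without WEHI3 DMSO replicate 3 there were 12. The causes were not tested. Dnajc10, Hacd1, Pak1ip1, Ppid and Tmem250-ps passed in every setting that kept all libraries, other than lines as replicates.

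The replicate numbers did not pair the samples: of 21 same-numbered pairs, 5 had correlated deviations over 0.1 (range -0.172 to 0.402), and 6 of 21 DMSO libraries correlated best with their own number. With the replicate number as a block, 9 genes were called (6 higher, 3 lower, 4 outside the range). Of the 21, 12 were not called with it: Cul1, Etv5, Hmox1, Iqsec1, Parp16, Rbmx, Rnf185, Tax1bp3, Tcp1, Timm50, Tpm1 and Vasn, at adjusted p-values of 0.0541 to 0.168. The class difference in mitochondrial share changed sign, without a call, to 0.0246 points without CT26, 0.167 without EG7, 0.0165 without LLC and 0.0481 without Pan02. List medians stayed above 0 in all 60 alternatives for cholesterol synthesis (0.01 to 0.14) and ribosome biogenesis (0.03 to 0.07).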
